A study of Mus musculus with 6 samples.

Results

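The interleukin-1 (IL-1) family was followed here through 5 genes, the ligand Il1a, its antagonist Il1rn, and the receptor genes Il1rl1, Il18r1 and Il18rap, in 6 single-cell libraries of mouse T helper 9 (Th9) cultures. The 5 members are 5 of 17369 genes in the authors' table, and of 13 measured genes on a list of IL-1 family ligands, receptors and decoys. They were chosen by name with the difference between genotypes already known, so their genotype values are given as a description with no test. Cblb-/- cultures (libraries D, E and F) came from mice lacking CBL-B, a ubiquitin ligase that restrains T cell activation, and wild-type cultures (libraries A, B and C) from mice with the intact gene. In both genotypes, naive CD4+ T cells of the spleen, bead-purified, were grown for 48 h with 3 ng/ml human TGFβ, 20 ng/ml IL-4 and 20 µg/ml anti-IFNγ antibody, a mix known to drive IL-9 production. The labels name no age and no separate cultures or animals behind the samples, so the spread between libraries may be partly technical.

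IL-1α, the product of Il1a, is a cytokine that is released by stressed or dying cells and binds the receptor IL-1R1, which then recruits the accessory chain made from Il1rap and signals through MyD88. Il1rn encodes the IL-1 receptor antagonist, which occupies the same receptor without recruiting the accessory chain. Il1rl1 encodes ST2, the receptor of IL-33, best known on mast cells, type 2 innate lymphoid cells, Th2 cells and some regulatory T cells. Il18r1 and Il18rap encode the binding and accessory chains of the IL-18 receptor, best known on Th1 and natural killer cells. IL-1 cytokines are known to raise IL-9 production when added to Th9 cultures.

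The receptor members form a row on chromosome 1 (mm10, GENCODE M21, all on the plus strand). Il1rl1 runs from 40429570 to 40465415, Il18r1 from 40465552 to 40500854 and Il18rap from 40515362 to 40551705. The gap between Il1rl1 and Il18r1 is 137 bases. Il1rn lies on chromosome 2 from 24336853 to 24351494 on the plus strand, and Il1a on chromosome 2 from 129299610 to 129309972 on the minus strand, 54598 bases from Il1b. The promoter windows of the ligand and the antagonist are shown because these genes had the widest differences between genotypes among the members. All 5 members matched RefSeq windows (GRCm38.p6, 250 bases before to 50 after a start, 10 windows in all). Capitals mark matches, on either strand, to the AP-1 motif TGANTCA, the STAT6 motif TTCNNNNGAA, the STAT motif TTCNNNGAA, the GATA motif AGATAA or the NF-κB motif GGGNNTNNCC. The windows below are chr2:129309923-129310222 (minus strand), chr2:24336610-24336909 (plus strand) and chr2:24345041-24345340 (plus strand), each 5′ to 3′.
Il1a: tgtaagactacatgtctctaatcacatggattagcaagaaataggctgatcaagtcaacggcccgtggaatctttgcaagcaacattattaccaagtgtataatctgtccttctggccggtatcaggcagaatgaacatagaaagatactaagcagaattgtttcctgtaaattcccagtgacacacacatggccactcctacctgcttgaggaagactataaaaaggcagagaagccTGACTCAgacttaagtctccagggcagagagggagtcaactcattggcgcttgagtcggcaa
Il1rn, upstream start: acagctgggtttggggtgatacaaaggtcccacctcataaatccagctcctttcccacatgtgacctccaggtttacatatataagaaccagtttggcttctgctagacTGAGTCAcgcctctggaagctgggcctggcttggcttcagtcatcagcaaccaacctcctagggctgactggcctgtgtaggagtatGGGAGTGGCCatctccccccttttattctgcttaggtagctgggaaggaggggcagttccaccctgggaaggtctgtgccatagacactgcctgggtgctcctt
Il1rn, downstream start: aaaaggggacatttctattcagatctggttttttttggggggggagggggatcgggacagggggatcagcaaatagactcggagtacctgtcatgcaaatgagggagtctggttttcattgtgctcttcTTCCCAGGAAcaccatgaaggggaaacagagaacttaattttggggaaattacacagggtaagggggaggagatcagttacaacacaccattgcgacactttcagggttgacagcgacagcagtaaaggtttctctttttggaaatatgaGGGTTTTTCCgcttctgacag
The Il1a window held 1 match, an AP-1 letter string that begins 12 bases before the start. The upstream Il1rn window held an AP-1 match 141 bases before the start and an NF-κB match 54 bases before it. The downstream Il1rn window held a STAT6 match 121 bases before the start and an NF-κB match in the transcribed bases, and the third Il1rn window overlaps it and holds the same matches. Of 32851 mouse promoter windows of this length, 7.81% held the AP-1 motif, 6.95% STAT6, 8.30% STAT, 11.2% GATA and 18.4% NF-κB. A GATA match stood in both Il1rl1 windows, 217 and 103 bases before their starts. STAT or STAT6 matches stood in the 3 Il18r1 windows, of which the upstream pair overlap and share a single match, and in the Il18rap window. None of these motifs overlapped another in the printed windows, and a match describes letters only, not binding.

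The table held 27258 cells (14503 Cblb-/- and 12755 wild type) in 6 libraries, with 3423 to 5666 cells each in Cblb-/- and 3902 to 4552 in wild type. Median raw depth per cell lay between 35573 and 39628 unique molecular identifiers (UMIs). Levels below are parts per 1000000 of a library's summed corrected counts (ppm), and 76 barcodes occurred in more than 1 library (0.558% of cells). T cell markers summed to 650 to 704 ppm in Cblb-/- and 753 to 777 ppm in wild-type libraries, and all 4 of them were measured. Neutrophil markers summed to at most 0.0122 ppm in any library, with 1 of 4 measured. The myeloid list summed to 1.997 to 3.67 ppm in Cblb-/- and 1.501 to 2.36 ppm in wild-type libraries (7 of 8 measured). Of its genes Adgre1, Itgax and Flt3 were higher in each Cblb-/- library than in any wild-type library, at 0.031 to 0.14 ppm in Cblb-/- and 0 to 0.049 ppm in wild type. The other measured genes, Csf1r, Cd68, Fcer1g and Tyrobp, overlapped between genotypes. Csf1r lay at 0.024 to 0.047 ppm in Cblb-/- and 0.012 to 0.054 ppm in wild type. Cd68, with the highest mean of the list, lay at 1.18 to 1.43 ppm in Cblb-/- and 1.17 to 1.21 ppm in wild type. The mast cell and basophil list (6 of 8 measured) summed to 0.960 to 3.58 ppm in Cblb-/- and 0.976 to 4.47 ppm in wild-type libraries. B cell markers (4 of 4 measured, mostly Cd79b) summed to 5.18 to 9.04 ppm in Cblb-/- and 2.90 to 3.51 ppm in wild-type libraries. CD8 and natural killer markers (3 of 4 measured, mostly Cd8b1) summed to 10.2 to 11.1 ppm in Cblb-/- and 5.68 to 7.23 ppm in wild-type libraries. Cd8a was at most 0.26 ppm in Cblb-/- and 0.098 ppm in wild type. The natural killer gene Klrb1c went the other way, at most 0.0093 ppm in Cblb-/- and 0.0067 to 0.031 ppm in wild type. The list for group 2 innate lymphoid cells (2 of 3 measured, Gata3 and Il7r, both also T cell genes) summed to 139 to 191 ppm in Cblb-/- and 113 to 116 ppm in wild-type libraries. Their part in the differences below was not tested. Cblb itself measured 18.4, 15.0 and 18.0 ppm in Cblb-/- libraries D, E and F, against 32.6, 31.1 and 30.9 ppm in wild-type libraries A, B and C (log2 difference −0.85, SE 0.077, limma adjusted p = 0.00082). The labels do not say which part of the gene is deleted, so these 3′ tags check the labels only in direction.

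Il1a, the agonist, was higher in Cblb-/- libraries. It measured 23.5, 18.8 and 17.4 ppm in Cblb-/- libraries D, E and F, against 3.89, 3.74 and 4.15 ppm in wild-type libraries A, B and C. Each Cblb-/- library lay far above every wild-type library, and the wild-type libraries were nearly equal. The means were 19.9 ± 3.17 ppm in Cblb-/- and 3.93 ± 0.21 ppm in wild type (SD, n = 3 each), a ratio of 5.06. On the log2(ppm + 1) scale, which understates changes of low genes, the difference was 2.07 (limma SE 0.11).

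More cells held Il1a, and those cells held more of it. A corrected count of at least 1 was present in 21.0%, 17.0% and 16.4% of Cblb-/- cells, against 4.77%, 5.02% and 4.39% of wild-type cells. Among these cells the mean corrected count was 4.17 ± 0.11 in Cblb-/- and 3.18 ± 0.38 in wild type (SD, n = 3 each). Cells with 10 or more counts made up 1.94% ± 0.27 of Cblb-/- cells and 0.301% ± 0.10 of wild-type cells, and in Cblb-/- libraries these few cells held 44.0% to 48.0% of all Il1a counts. The highest single cell, in library F, had 71. Corrected counts come from a model, so a value of 1 is not always 1 observed molecule, and fewer positive cells cannot be told apart from less RNA per cell at low values.

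Il1rn, the antagonist, was also higher in Cblb-/- libraries. It measured 11.7, 12.4 and 20.9 ppm in Cblb-/- libraries D, E and F, against 3.90, 3.41 and 2.92 ppm in wild-type libraries A, B and C. The groups did not overlap, and library F stood above the other Cblb-/- libraries. The means were 15.0 ± 5.14 ppm in Cblb-/- and 3.41 ± 0.49 ppm in wild type (SD, n = 3 each), a ratio of 4.41, with a log2 difference of 1.82 (limma SE 0.20) and 1.57 without library F. Il1rn was spread over more cells than Il1a at fewer counts each. It was present in 24.5%, 23.8% and 31.0% of Cblb-/- cells and in 9.38%, 8.25% and 6.74% of wild-type cells, with a mean in those cells of 2.13 ± 0.40 counts in Cblb-/- and 1.60 ± 0.041 in wild type (SD, n = 3 each).

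The agonist and the antagonist did not move in a fixed proportion. The ratio of Il1a to Il1rn counts was 2.01, 1.51 and 0.83 in Cblb-/- libraries D, E and F, against 0.998, 1.10 and 1.42 in wild-type libraries A, B and C. These ranges overlap: library F had the lowest ratio of all 6 and library D the highest. Both genes are read here by 3′ tags, so the ratio is one of counts and not of protein.

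Cells with Il1a held Il1rn more often than cells without it, in each of the 6 libraries. In Cblb-/- libraries D, E and F, Il1rn was present in 32.6%, 31.4% and 37.3% of Il1a-containing cells and in 22.4%, 22.2% and 29.8% of the other cells. In wild-type libraries A, B and C the shares were 20.4%, 15.3% and 13.5% against 8.83%, 7.88% and 6.43%. The Il1a-containing cells were also deeper, with median raw totals of 39071 to 44242 against 34873 to 38846 UMIs in Cblb-/- and 43445 to 44056 against 37342 to 38423 UMIs in wild type. Among cells within 20% of the median depth the shares were 34.3%, 26.8% and 35.5% against 22.9%, 22.2% and 29.6% in Cblb-/-, and 23.8%, 11.1% and 12.4% against 9.16%, 7.76% and 6.11% in wild type. The share was thus higher in Il1a-containing cells of each library within this depth band too, although depth was not compared inside it. At any depth, 38, 33 and 27 cells of wild-type libraries A, B and C held both genes, and fewer did within the band.

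The IL-18 receptor genes were low in every library and higher in the Cblb-/- ones. Il18r1 measured 1.28, 1.30 and 1.18 ppm in Cblb-/- libraries D, E and F, against 0.57, 0.62 and 0.94 ppm in wild-type libraries A, B and C. Il18rap measured 1.19, 1.02 and 1.15 ppm in Cblb-/- libraries, against 0.69, 0.49 and 0.68 ppm in wild-type libraries. Neither gene's groups overlapped, although wild-type library C came nearer to the Cblb-/- range for Il18r1 than the other wild-type libraries did. The ratios of means were 1.76 for Il18r1 and 1.80 for Il18rap, and the log2(ppm + 1) differences 0.40 (SE 0.098) and 0.39 (SE 0.067).

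The binding chain was present in 3.71% ± 0.16 of Cblb-/- cells and 2.34% ± 0.57 of wild-type cells, and the accessory chain in 3.50% ± 0.094 of Cblb-/- and 2.17% ± 0.33 of wild-type cells (SD, n = 3 each). Cells with Il18r1 also held Il18rap more often. The share was, in Cblb-/- libraries D, E and F, 18.1%, 14.2% and 19.3% of Il18r1-containing cells, against 3.03%, 2.97% and 2.91% of the other cells. In wild-type libraries A, B and C it was 12%, 6.59% and 12.5%, against 2.14%, 1.69% and 2.08%. The wild-type shares rest on 9, 6 and 17 cells that held both. Among cells within 20% of the median depth the shares were 6.90%, 14.6% and 17.3% against 2.44%, 2.61% and 2.71% in Cblb-/-, and 8.57%, 7.32% and 16.4% against 1.91%, 1.36% and 1.87% in wild type, so that library D was much lower than over all its cells. In Cblb-/- libraries the Il18r1-containing cells were deeper, with median raw totals of 39184 to 43329 against 35429 to 39567 UMIs.

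Il1rl1 had the fewest counts of the members. It measured 0.17, 0.070 and 0.35 ppm in Cblb-/- libraries D, E and F, against 0.034, 0.012 and 0.21 ppm in wild-type libraries A, B and C. The groups overlapped, and libraries F and C were the highest of their genotypes. The table held 153 Il1rl1 counts in all.

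The levels of the 5 members are plotted by library.

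**Figure D1:**
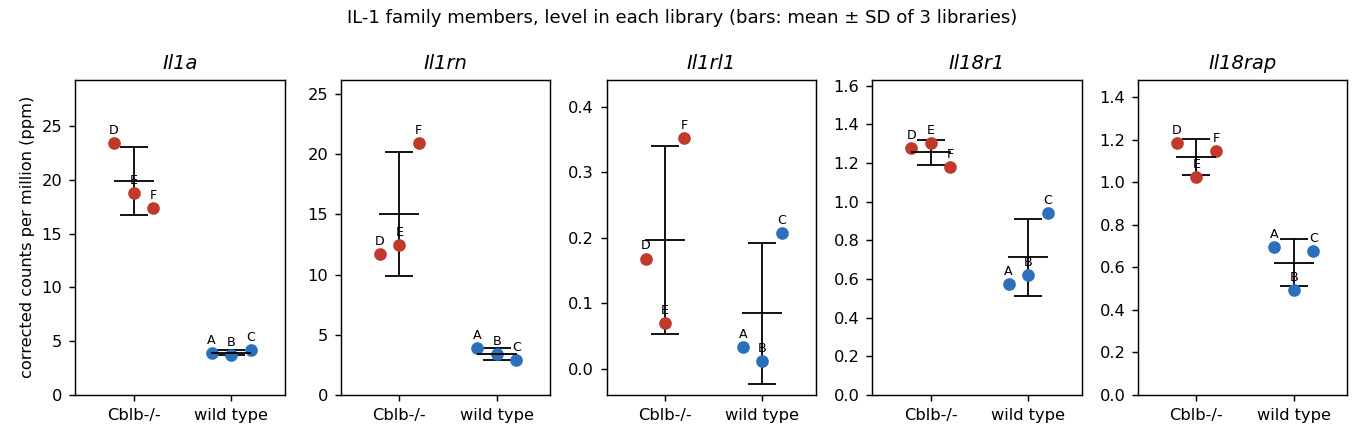
Each point is 1 library (parts per 1000000 of corrected counts, ppm, on a linear axis that differs between panels), with Cblb-/- libraries in red on the left and wild-type libraries in blue on the right; horizontal lines and bars give the mean ± SD of 3 libraries. Il1a sits between 17.4 and 23.5 ppm in Cblb-/- libraries, far above the wild-type points, while the Il1rl1 groups overlap.

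The Cblb-/- libraries lay above every wild-type library for 4 of the 5 members. Over all 17369 genes this held for 20.2%, and since the members were chosen on this contrast nothing is read from their count. Only Il1a and Il1rn passed the filter of a mean of 5 ppm for the test across genes. Their wild-type means of 3.93 and 3.41 ppm were under it, so both passed only through their Cblb-/- libraries. Among 8475 genes tested, 11.0% were called higher and 13.4% lower in Cblb-/- (limma on log2(ppm + 1), Benjamini-Hochberg adjusted p under 0.05).

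The rest of the ligand and receptor family gave 1 called gene. Sigirr, a receptor of the family that restrains IL-1 and IL-33 signalling, rose to 51.3, 38.7 and 52.3 ppm in Cblb-/- libraries D, E and F, against 29.4, 27.4 and 28.7 ppm in wild-type libraries A, B and C (log2 difference 0.70, SE 0.11, limma adjusted p = 0.0050). It was the single gene tested among the 6 measured receptors and decoys outside the members. The accessory chain Il1rap measured 4.37, 4.09 and 4.67 ppm in Cblb-/- libraries and 2.59, 3.11 and 2.98 ppm in wild-type libraries, under the filter and without overlap. The decoy receptor Il1r2 measured 0.90, 0.57 and 0.41 ppm in Cblb-/- and 0.15, 0.23 and 0.25 ppm in wild-type libraries, also without overlap.

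Il1r1, the receptor through which Il1a and Il1rn act, was nearly absent from the table. It measured 0.32, 0.15 and 0.66 ppm in Cblb-/- libraries D, E and F, against 0.18, 0.098 and 0.14 ppm in wild-type libraries A, B and C, with library F the highest and library E inside the wild-type range. Il1rl2, a receptor for IL-36 cytokines, measured 0.34 ± 0.050 ppm in Cblb-/- and 0.44 ± 0.030 ppm in wild type (SD, n = 3 each). It was lower without overlap, at 0.28 to 0.37 ppm in Cblb-/- and 0.40 to 0.46 ppm in wild-type libraries, and was under the filter. The soluble IL-18 inhibitor Il18bp measured 1.13 ± 0.12 ppm in Cblb-/- and 1.03 ± 0.046 ppm in wild type, and its target Il18 at most 0.046 ppm in any library. Il33 and the IL-36 ligands on the list were not among the measured genes.

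Genes of the signalling chain below these receptors changed in both directions. Of 16 tested genes, 3 rose, 3 fell and 10 did not pass, and the median log2 difference of 0.0044 lay beside −0.014 over all genes tested. Over all genes tested, 11.0% were called higher and 13.4% lower. Tnfaip3, which encodes the NF-κB brake A20, measured 23.7 ± 1.67 ppm in Cblb-/- and 16.9 ± 1.12 ppm in wild type (log2 difference 0.46, limma adjusted p = 0.0048). Tab2, an adaptor of the TAK1 kinase, rose by 0.37 (adjusted p = 0.0023) and Tnip1, a partner of A20, by 0.23 (adjusted p = 0.015). The TAK1 kinase gene Map3k7 measured 31.7 ± 2.96 ppm in Cblb-/- and 41.9 ± 0.21 ppm in wild type (log2 difference −0.39, limma adjusted p = 0.0069). The adaptor Myd88 fell by 0.32 (adjusted p = 0.013) and the ubiquitin-conjugating enzyme gene Ube2n by 0.19 (adjusted p = 0.022). Traf6, the ubiquitin ligase of the pathway, measured 30.4 ± 0.20 ppm in Cblb-/- and 29.8 ± 0.68 ppm in wild type (log2 difference 0.029, adjusted p = 0.64).

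Among genes of cytokine processing and release, 4 of 9 tested rose, 1 fell and 4 did not pass (median log2 difference 0.11). The shares over all genes tested were 11.0% higher and 13.4% lower, and the list was not tested as a set. Gzmb, the protease granzyme B, measured 16.2, 4.31 and 16.3 ppm in Cblb-/- libraries D, E and F, against 2.59, 0.58 and 4.46 ppm in wild-type libraries A, B and C (log2 difference 1.89, SE 0.55, limma adjusted p = 0.043), and its groups overlapped. It passed the 5 ppm filter only through its Cblb-/- mean of 12.3 ppm, against 2.54 ppm in wild type, and was not called with no filter (adjusted p = 0.078), with a pseudocount of 0.1 ppm (0.051) or without the variance trend (0.052). Hax1, whose protein binds the IL-1α precursor, rose by 0.33 (adjusted p = 0.022). Capn1, a calpain of the family that cleaves the IL-1α precursor, rose by 0.27 (adjusted p = 0.033), while Capn2 and the shared small subunit Capns1 measured 0.041 and 0.033 on the same scale and did not pass. Aim2, a DNA sensor of inflammasomes, rose by 0.24 (adjusted p = 0.018), and the inflammasome adaptor Pycard fell by 0.15 (adjusted p = 0.034).

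Transcription factors known to act on the receptor genes rose in 4 of 6 tested cases and fell in none (median log2 difference 0.29). The shares over all genes tested were 11.0% higher and 13.4% lower. Tbx21 and Eomes, also listed, were under the filter and not tested, and this list was not tested as a set. Stat4, which relays IL-12 signals and is known to induce the IL-18 receptor in Th1 cells, measured 26.6, 15.9 and 20.5 ppm in Cblb-/- libraries D, E and F, against 10.3, 9.66 and 9.33 ppm in wild-type libraries A, B and C (log2 difference 1.01, limma adjusted p = 0.0051). Gata3, the Th2 factor known to bind the ST2 gene, rose by 0.41 (adjusted p = 0.032), Stat5a by 0.33 (adjusted p = 0.017) and Stat6, which relays IL-4, by 0.25 (adjusted p = 0.016). Of the 16 called genes on these lists, 5 (Sigirr, Tab2, Tnfaip3, Map3k7 and Stat4) were called in every setting tried and the other 11 lost the call in at least 1. All 11 lost it without wild-type library A and without library C, and most without library B. Some of them also lost it under other processing with all libraries kept. Aim2 measured 0.13 with equal cluster composition (limma adjusted p = 0.16). Capn1 and Gata3 did not pass with no filter on low values (adjusted p = 0.053 and 0.057), nor Pycard with median-of-ratios scaling or without the variance trend (0.055 and 0.056).

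**Figure D2:**
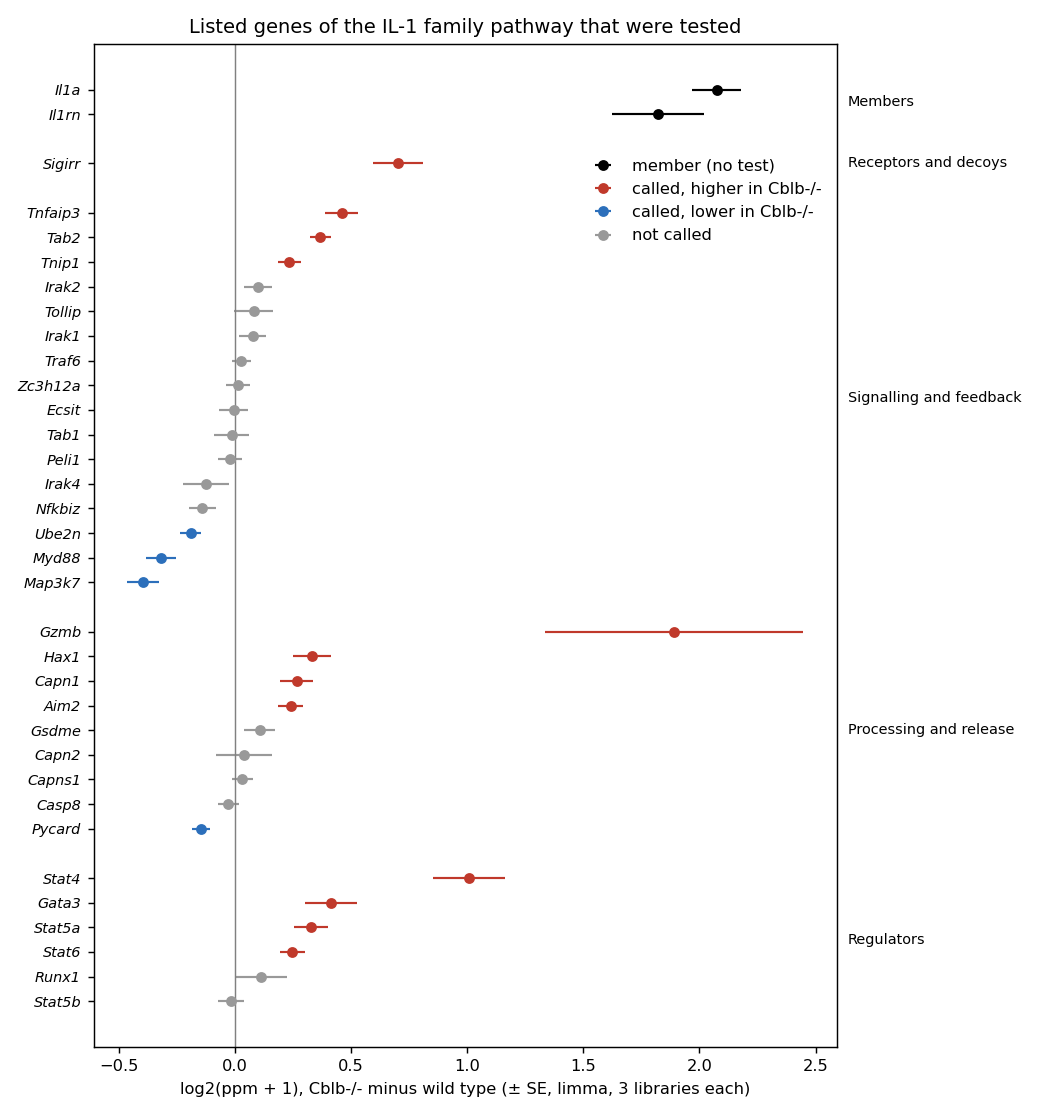
Each row is a gene, grouped by list, and the axis is the log2(ppm + 1) difference, Cblb-/- minus wild type, with the limma SE from 3 libraries each; red and blue points passed the test in Cblb-/- as higher and lower, grey points did not, and the 2 members in black were not tested. The members lie at 2.07 and 1.82, and Gzmb at 1.89 has the widest error.

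Il1a differed between the authors' clusters, and the order of the cluster means was not the same in the genotypes. Among Cblb-/- libraries cluster 3 was highest at 40.0 ± 15.7 ppm, followed by cluster 2 at 34.9 ± 13.8, cluster 4 at 28.3 ± 9.97, cluster 5 at 21.1 ± 5.73, cluster 0 at 17.7 ± 2.82 and cluster 1 at 12.5 ± 4.93 ppm (SD, n = 3 each). Every neighbour in that order overlapped the next over its 3 libraries. Cluster 3 was highest in library F only, at 57.6 ppm. In library D cluster 4 was highest at 37.4 ppm, and in library E cluster 2 at 49.9 ppm. The order of the upper clusters in Cblb-/- is thus not settled. In wild-type libraries cluster 2 was highest at 13.1 ± 3.03 ppm and stood clear of cluster 4 at 6.38 ± 0.66 ppm, while cluster 3 held 5.44 ± 2.80 ppm, cluster 0 held 4.42 ± 1.08 ppm, cluster 5 held 3.26 ± 1.60 ppm and cluster 1, the lowest, 2.09 ± 0.25 ppm. The cells had been clustered on their expression, so these are descriptions.

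Within each of the 6 clusters that had at least 50 cells in every library, all Cblb-/- libraries lay above all wild-type libraries for Il1a and for Il1rn. Both genes were chosen on this contrast, and the share of all genes doing so within clusters was not computed, so nothing is read from this count. The log2 difference of Il1a ran from 1.30 (SE 0.36) in cluster 2 to 2.72 (SE 0.53) in cluster 3. That of Il1rn ran from 1.12 (SE 0.31) in cluster 2 to 2.19 (SE 0.37) in cluster 4. Cluster 2, where wild-type cells were highest for both genes, thus had the smallest difference for both. With every library given the same mix of clusters, the differences over all cells were 1.87 for Il1a and 1.74 for Il1rn.

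The order for Il1rn was another. Cblb-/- libraries held 20.3 ± 7.12 ppm in cluster 2, 16.7 ± 9.55 in cluster 5, 16.0 ± 2.11 in cluster 4, 14.4 ± 6.06 in cluster 0, 13.1 ± 1.99 in cluster 1 and 9.39 ± 2.56 ppm in cluster 3 (SD, n = 3 each), and only clusters 1 and 3 did not overlap among neighbours. Cluster 3, last for Il1rn by its mean, was first for Il1a by its mean, through library F. In wild-type libraries Il1rn was 8.44 ± 1.14 ppm in cluster 2, clear of the rest, which lay between 2.53 ± 0.45 ppm in cluster 0 and 3.54 ± 0.67 ppm in cluster 1 with every neighbour overlapping.

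**Figure D3:**
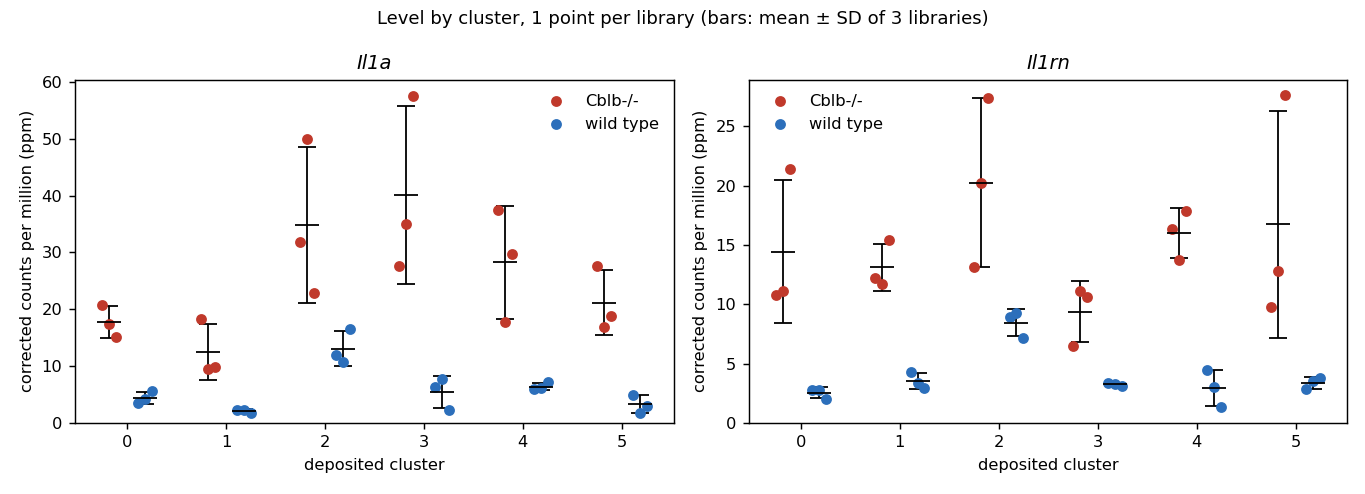
Points are libraries (parts per 1000000 of corrected counts, ppm), by the authors' cluster number, with Cblb-/- in red left of wild type in blue, and lines and bars give the mean ± SD of 3 libraries. The groups do not overlap in any of the 6 clusters for either gene, and wild-type cells peak in cluster 2 at 13.1 ppm for Il1a and 8.44 ppm for Il1rn.

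The IL-18 receptor genes also differed between clusters. Cluster 6, with 18 Cblb-/- and 6 wild-type cells, was too small to enter the orders below. Its Cblb-/- cells held 7 Il18rap counts, in 4 cells (13.3 ± 4.84 ppm, SD, n = 3), and its wild-type cells held 1. Il18rap in Cblb-/- libraries was 2.25 ± 1.30 ppm in cluster 3, 2.001 ± 0.31 in cluster 4, 1.81 ± 0.40 in cluster 5, 1.38 ± 0.18 in cluster 2, 1.04 ± 0.15 in cluster 0 and 0.65 ± 0.13 ppm in cluster 1, and the last 3 of these did not overlap each other. In wild-type libraries it lay between 0.49 ± 0.067 ppm in cluster 1 and 1.01 ± 0.14 ppm in cluster 2, every neighbour overlapping. Il18r1 was highest in cluster 5 in both genotypes, at 2.45 ± 1.64 ppm in Cblb-/- and 1.16 ± 0.25 ppm in wild type, with every neighbour in either order overlapping. The genotypes did not overlap in clusters 0 and 2 for Il18r1, and in all compared clusters except cluster 1 for Il18rap. Some of these comparisons rest on few counts, such as 16 wild-type Il18r1 counts in cluster 2 and 12 wild-type Il18rap counts in cluster 4. The members were chosen on this contrast, and the share of all genes without overlap in a cluster was not computed, so nothing is read from it.

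Il1rl1 belonged mostly to cluster 6, a group of 24 cells (18 Cblb-/- and 6 wild type). Its leading genes, ranked by the ratio of ppm + 1 in cluster 6 to ppm + 1 in all other cells, were Ifitm1, Pf4, Cpa3, Mcpt1, Cd63, Mcpt8, Plac8, Tph1, Csf2rb and Fcer1g. It held the listed mast cell and basophil markers Cpa3, Ms4a2, Fcer1a, Hdc, Gata2 and Mcpt8, the last best known from basophils, and is called mast cell- or basophil-like because the list does not separate these cell types. Its cells were shallower, with median raw totals of 24759 UMIs in Cblb-/- and 27389 in wild type. These 24 cells held 88 of the 153 Il1rl1 counts (57.5%), at 98.6 ppm, against 0.063 ppm in all other cells. Il1rl1 was present in 14 of the 24 (58.3%) and in 40 of the other 27234 cells (0.147%). By genotype, cluster 6 held 64 of 110 Il1rl1 counts in Cblb-/- and 24 of 43 in wild type. Library F contributed 13 and library C 4 of the 24 cells, and these were the libraries with the most Il1rl1.

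Outside cluster 6 Il1rl1 was low. Its level there was 0.090 ± 0.048 ppm in Cblb-/- and 0.037 ± 0.043 ppm in wild type (SD, n = 3 each, overlapping). In cluster 5 it was present in 0 of 350 Cblb-/- cells and in 0 of 859 wild-type cells. For cells with a corrected count, and for counting error only, this allows a share of up to 0.857% in Cblb-/- and 0.349% in wild type; it sets no limit on cells that express the gene below detection. The proportion of Il1rl1 to the listed markers differed between cluster 6 and the other cells, in a direction that depended on the marker. There were 0.157 Il1rl1 counts per Cpa3 count in cluster 6 and 5.91 elsewhere, and Ms4a2, Gata2 and Mcpt8 went the same way, whereas there were 1.44 Il1rl1 counts per Hdc count in cluster 6 and 0.0995 elsewhere. Fcer1a had no count outside cluster 6. Of the 65 outside counts, 22 sat in 4 cells with 5 or 6 counts each, 3 of them Cblb-/-, and none of these cells had a mast cell and basophil marker sum of 5 or more. The Il1rl1 level by cluster is plotted beside the share of its counts.

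**Figure D4:**
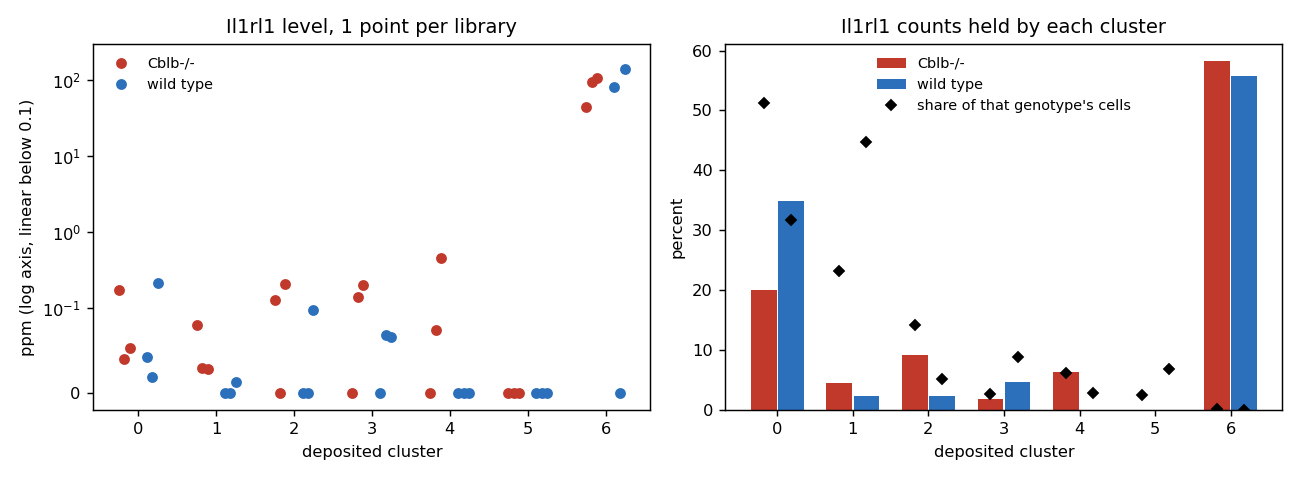
On the left, each point is the Il1rl1 level of 1 library in 1 cluster (ppm, on a log axis that is linear below 0.1), with Cblb-/- in red left of wild type in blue; on the right, bars give the percent of each genotype's Il1rl1 counts in each cluster and diamonds the percent of its cells. Cluster 6 holds 58.2% of Cblb-/- and 55.8% of wild-type Il1rl1 counts with 0.124% and 0.0470% of the cells.

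Il1a and Il1rn were next set against the cytokine that defines the culture, by comparing cells with at least 10 Il9 counts with cells at 0 in the same library. This contrast within libraries had no part in the choice of members. Il1a was higher in Il9-high cells of 5 of 6 libraries (log2 difference 0.86, SE 0.17, limma with library as a block, adjusted p = 0.0013) and Il1rn in 6 of 6 (0.83, SE 0.12, adjusted p = 0.00011). Of 8520 genes tested, 22.9% were called higher in Il9-high cells. With cells that had at least 1 Il9 count in place of 10, Il1a no longer passed (0.28, adjusted p = 0.062, in a range of 1.5e-08 to 0.062 over its settings). The low end came from wild-type libraries alone. There Il1a passed the 5 ppm filter only through its Il9-high cells (8.74 against 3.05 ppm), so nothing is read from that value.

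In Cblb-/- libraries D, E and F, Il1a measured 28.8, 34.6 and 20.9 ppm in Il9-high cells and 20.1, 16.2 and 23.7 ppm in Il9-zero cells. In wild-type libraries A, B and C it measured 8.04, 7.83 and 10.3 ppm in Il9-high cells and 3.04, 3.47 and 2.64 ppm in Il9-zero cells. Library F was the one in which Il9-high cells were lower. Even the Il9-zero cells of the Cblb-/- libraries held more Il1a than the Il9-high cells of any wild-type library.

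Il1rn measured 13.6, 16.9 and 26.8 ppm in Il9-high and 10.8, 11.3 and 17.3 ppm in Il9-zero cells of Cblb-/- libraries D, E and F. In wild-type libraries A, B and C it measured 8.09, 7.14 and 6.92 ppm in Il9-high and 3.03, 3.08 and 2.10 ppm in Il9-zero cells. The step with Il9 was smaller in Cblb-/- than in wild type on the log2 scale for Il1rn, by −0.69 (SE 0.10, interaction adjusted p = 0.00069), and for Il1a, by −0.80 (SE 0.22, interaction adjusted p = 0.027). Of 8520 genes tested, 6.41% had such a smaller step in Cblb-/-. Both genes were chosen with their genotype difference known, so this test between genotypes is not independent of the choice. In ppm the gap between class means was wider in Cblb-/- for both. Il9-high and Il9-zero means of Il1a were 28.1 and 20.0 ppm in Cblb-/-, and 8.74 and 3.05 ppm in wild type. Those of Il1rn were 19.1 and 13.1 ppm in Cblb-/-, and 7.38 and 2.74 ppm in wild type. The Il1a interaction did not pass without library A, C or F (adjusted p = 0.066, 0.16 and 0.10). Neither interaction passed with a pseudocount of 10 ppm, among cells near the median depth or with a minimum of 1 Il9 count (adjusted p = 0.10 for Il1a and 0.084 for Il1rn in the last), and that of Il1a did not pass in cluster-matched cells (0.12). In all, the Il1a interaction was lost in 7 of 11 settings and that of Il1rn in 3 of 11. Median depths of Il9-high and Il9-zero cells were 36934 to 40423 against 36930 to 44185 UMIs in Cblb-/-, and 42185 to 43494 against 37998 to 39859 UMIs in wild type, where Il9-high cells were the deeper ones in every library.

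Cells were also split by Il13, another type 2 cytokine. Il1a was higher in cells with at least 1 Il13 count than in cells with none, in 6 of 6 libraries (log2 difference 1.17, SE 0.16, limma adjusted p = 0.0033), where 6.21% of 8521 genes were called higher. It measured 29.4, 40.9 and 24.6 ppm in Il13-containing cells of Cblb-/- libraries D, E and F, against 20.3, 16.8 and 14.6 ppm in their Il13-zero cells. In wild-type libraries A, B and C it measured 9.89, 17.4 and 12.3 ppm, from 42, 40 and 53 cells, against 3.83, 3.61 and 4.05 ppm. Il13-containing cells were deeper, with medians of 39110 to 42311 against 35263 to 38902 UMIs in Cblb-/- and 44816 to 54287 against 37491 to 38622 in wild type. Among cells near the median depth the Il1a difference was 1.01 and did not pass (adjusted p = 0.16, in a range of 2.6e-05 to 0.16 over its settings).

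Il1rn did not pass in the Il13 comparison (0.18, SE 0.17, adjusted p = 0.54). In Cblb-/- libraries D, E and F it measured 9.92, 11.4 and 18.6 ppm in Il13-containing cells and 12.6, 12.5 and 21.9 ppm in Il13-zero cells, lower in each. With those libraries alone the difference was −0.22 (limma adjusted p = 0.0067, in a range of 0.0067 to 1.0 over its settings). In wild-type libraries A, B and C it measured 7.42, 3.22 and 6.88 ppm in Il13-containing cells, on 12, 5 and 14 counts, and 3.86, 3.41 and 2.88 ppm in Il13-zero cells. With wild-type libraries alone Il1rn fell under the filter of 5 ppm. The difference between genotypes did not pass for either gene (interaction adjusted p = 0.26 for Il1a and 0.23 for Il1rn).

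Foxp3, the factor of regulatory T cells, which TGFβ induces, gave the last split. Il1a was lower in Foxp3-containing cells of 6 of 6 libraries (log2 difference −0.62, SE 0.084, limma adjusted p = 7.9e-05), where 21.6% of 8472 genes were called lower. It measured 20.0, 11.2 and 8.36 ppm in Foxp3-containing cells of Cblb-/- libraries D, E and F, against 23.8, 20.1 and 18.3 ppm in their Foxp3-zero cells. In wild-type libraries A, B and C it measured 3.00, 2.60 and 2.40 ppm, against 4.16, 4.10 and 4.70 ppm. Median depths of the classes differed little, at 35558 to 39486 against 35578 to 39630 UMIs in Cblb-/- and 37765 to 39225 against 37523 to 38683 in wild type. With wild-type libraries alone Il1a and Il1rn fell under the filter of 5 ppm in this split, so both entered it through the Cblb-/- libraries.

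Il1rn was higher in Foxp3-containing cells of 5 of 6 libraries (0.35, SE 0.086, limma adjusted p = 0.0066), where 16.2% of genes were called higher. It measured 15.2, 11.3 and 25.3 ppm in Foxp3-containing and 11.4, 12.6 and 20.5 ppm in Foxp3-zero cells of Cblb-/- libraries D, E and F. In wild-type libraries A, B and C it measured 6.35, 4.37 and 3.66 ppm in Foxp3-containing and 3.16, 3.10 and 2.69 ppm in Foxp3-zero cells. With the Cblb-/- libraries alone it did not pass (0.18, adjusted p = 0.18, in a range of 0.00044 to 0.18 over its settings), and the difference between genotypes did not pass for either gene (interaction adjusted p = 0.81 for Il1a and 0.41 for Il1rn).

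**Figure D5:**
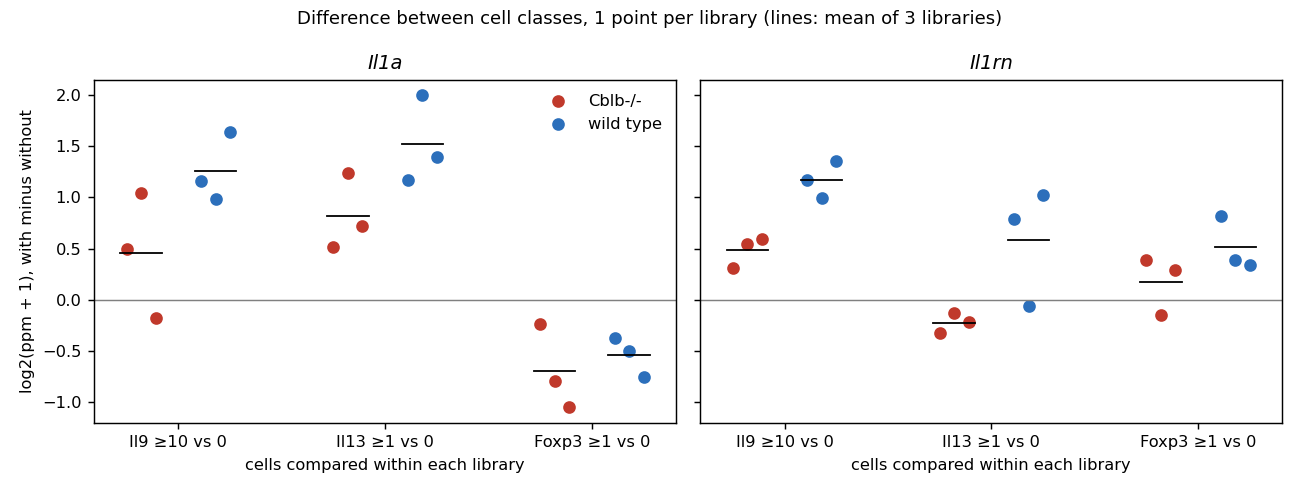
Each point is 1 library, and the axis is the log2(ppm + 1) difference between cells with and without the named gene, with Cblb-/- in red left of wild type in blue and lines at the mean of 3 libraries. Il1a is above 0 for Il13 and below 0 for Foxp3 in all 6 libraries, while Il1rn is above 0 for Il9 in all 6.

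Likeness of pattern was described over 36 sums (6 clusters in 6 libraries), which share libraries and genotypes. The genes closest to Il1a among about 8487 were Zeb2 (Pearson r = 0.92), Nfkb2, an NF-κB subunit (0.91), and Slc15a3 (0.90). Those closest to Il1rn were Ift57 (0.92), Clic4 (0.90) and the Notch pathway factor Rbpj (0.89). Il18rap was most like Inhba, a subunit of activin (0.82), B3gat3 (0.80) and Atp6v0b (0.79). For Il18r1 the highest were Lgals3 (0.67), Tarbp2 (0.64) and Epb41l2 (0.63), and for Il1rl1 Ttll5 (0.61), Crip2 (0.59) and Brwd3 (0.59), both at levels where few counts limit any r. Of the measured neighbours of the ligand genes on chromosome 2, Ckap2l beside Il1a (log2 difference 0.14, limma adjusted p = 0.10) and Psd4 and Spopl on either side of Il1rn (0.16 and −0.10, adjusted p = 0.25 and 0.27) did not pass the genotype test, and Il1b was under the filter and not tested.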

How the data were processed

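Each score in the deposited table, 1 per gene and cell, is an sctransform-corrected count per the file headers, so depth had been evened out by the authors and no count model was applied. Raw UMI counts per cell, percent of mitochondrial UMIs and cluster numbers 0 to 6 were taken as deposited. The lowest raw total was 15006 UMIs, since cells had been filtered before deposit. The submitters' processing notes name Cell Ranger 3.0.2, Seurat 3.0.0 and mm10, without settings. The table names libraries by index and genotype. Letters stand for them here: D, E and F are Cblb-/-, A, B and C wild type.

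Corrected counts were summed over cells by library, by library and cluster, and by library and cell class, then scaled to 1000000 (ppm). Tests used limma 3.58.1 in R 4.3.3 on log2(ppm + 1), two-sided, the prior variance following a trend. It covered genes averaging 5 ppm or more, with Benjamini-Hochberg adjustment at 0.05 over all of them. Class comparisons kept the library as a block and needed 20 cells per class and library. Raw counts per gene were not used here, so no doublets were called and no cells thinned. Depth was checked instead in cells within 20% of the median. The scripts were tested on simulated data. Limits for 0 cells use 3 counts.

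The members, lists and comparisons were chosen with earlier results of these data known. Named genes are the members, the listed family genes, up to 4 called genes per list and direction, and the 3 genes most like each member. Positions come from GENCODE M21 and promoter sequences from RefSeq.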

Additional observations from a re-analysis of the deposited data

Results flagged for a closer look

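The step of Il1a between Il9-high and Il9-zero cells differed between genotypes by a test of the difference itself, at −0.80 on the log2 scale (Cblb-/- minus wild type, limma interaction adjusted p = 0.027). The step was 0.46 over the 3 Cblb-/- libraries, positive in 2 of them, and 1.26 over the 3 wild-type libraries, positive in all 3. This difference did not pass in 7 of 11 settings, among them a pseudocount of 10 ppm, cells near the median depth, cluster-matched cells and the other Il9 minimum. It is one of log2 values: in ppm the means of Il9-high and Il9-zero cells were 28.1 and 20.0 in Cblb-/-, and 8.74 and 3.05 in wild type. The gap between these means was thus wider in Cblb-/- in ppm. The step of Il1rn differed in the same direction, at −0.69 (adjusted p = 0.00069), with 0.48 in Cblb-/- and 1.17 in wild type, positive in each library, and did not pass in 3 of 11 settings. Its ppm means were 19.1 and 13.1 in Cblb-/-, and 7.38 and 2.74 in wild type, again a wider gap in Cblb-/-. Groups of 3 libraries were not screened for single outlying libraries.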

How the results depend on the processing

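The scale moved the members most. With a pseudocount of 0.1 ppm the log2 differences between genotypes were 2.30 (Il1a), 0.72 (Il1rl1), 0.76 (Il18r1) and 0.77 (Il18rap), and with 10 ppm they were 1.10 (Il1a), 0.88 (Il1rn), 0.071 (Il18r1) and 0.066 (Il18rap). As the mean over cells of log2(corrected count + 1) they were 0.26 (Il1a), 0.29 (Il1rn), 0.017 (Il18r1) and 0.016 (Il18rap). Near the median depth they were 1.90 (Il1a) and 0.27 (Il18r1), and with equal cluster composition 1.87 (Il1a). With a minimum of 2 counts the shares differed by 7.77 (Il1a), 9.54 (Il1rn), 0.30 (Il18r1) and 0.43 (Il18rap) percentage points, and near the median depth by 0.95 (Il18r1) and 0.98 (Il18rap). No direction of a member's genotype difference turned in these settings.

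Genes called higher in Cblb-/- numbered 1433 with no filter on low values and 547 with a filter of 20 ppm, against 929. Leaving out 1 library gave 396 to 1750 higher and 381 to 1396 lower genes, and 5 to 15 higher and 1 to 4 lower listed genes. The Il9 step of Il1a fell to 0.28 with the other Il9 minimum. Its difference between genotypes was −0.18 with 10 ppm, −0.40 near the median depth, −0.62 in cluster-matched cells, −0.50 with the other minimum and −1.10 to −0.49 leaving out 1 library; for Il1rn it was −0.13 with 10 ppm, −0.28 near the median depth and −0.26 with the other minimum. None of these passed, except for Il1a without library B, D or E. The Il13 step of Il1a was 1.01 near the median depth, no longer called. That of Il1rn turned to −2.4e-05 near the median depth, −0.084 with a minimum of 2 and −0.22 in Cblb-/- alone. The Foxp3 step of Il1rn was 0.18 in Cblb-/- alone, and the genotype difference of that of Il1a ran from −0.38 to 0.025 leaving out 1 library. The cause was not tested. Wild-type libraries alone gave no value for Il1rn with Il13 nor for either gene with Foxp3, since the genes fell under the filter.

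No paired analysis was possible because the table's library names carry no replicate number. Il1rl1, Il18r1 and Il18rap rest on 153 to 1041 corrected counts in all, which limits any statement on them.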

Other observations

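Il1b, the other IL-1 agonist, was nearly absent and concentrated in single cells. The table held 178 Il1b counts, and 3 Cblb-/- cells with 10 or more counts held 144 of them (80.9%), 98 in 1 cell of library F. Its level was 0.015, 0.13 and 0.65 ppm in Cblb-/- libraries D, E and F, against 0.0067, 0.012 and 0.069 ppm in wild-type libraries A, B and C. Il1a counts were spread over 718, 966 and 888 cells of the same Cblb-/- libraries.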
